A study of Mus musculus with 18 samples.

Results

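Skor1, Cited1, Bhlhe40, Ano1, Ackr3 and Txnip were followed as 6 genes whose level changed differently with titled time in the 2 lines of an embryonic stem cell study. They were found as all non-control probes whose RefSeq transcript name maps to one of these symbols, which gave 8 probes, and they stand among 22911 genes with a symbol on the array and 16022 genes that were tested. All 6 passed the filter on dim probes. The difference between the lines in the change between titled times chose these genes, so that difference and its parts are given as descriptions with no test. Averages over lines or over titles were tested. They are made from the same group means as that difference, so they are no independent evidence on genes chosen in this way.

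RNA came from mouse embryonic stem cells of strain 129SV, and all cells, by the labels, are an Esrrb knockout that expresses Raf-ErT2. Raf-ErT2 is a Raf kinase fused to a modified oestrogen receptor, so that 4-hydroxytamoxifen (4OHT) switches on Raf, then Mek, then ERK. Of 18 arrays, 9 are labelled KO (the knockout cells with an empty vector) and 9 are labelled Rescue (the knockout cells with an Esrrb transgene), with no promoter or clone number given for the transgene. Cells were kept in serum and LIF with 2 µM Chir99021, a GSK3 inhibitor, and the day before treatment (24 h) they were moved to medium in which 250 nM PD173074, which blocks FGF receptors, took its place beside serum and LIF. Within each line 3 arrays are titled 0h (no treatment), 3 are titled 8h (250 nM 4OHT for 8 h) and 3 are titled 8h2h (the same, then a Mek inhibitor for 2 h). On 12 arrays the source name goes against the title: those titled 8h carry the Mek inhibitor in their source name and those titled 8h2h do not. Groups here follow the titles. Dusp6, a phosphatase gene that ERK induces, had a mean scaled level of 2.34, 4.58 and 0.17 on the KO-labelled arrays titled 0h, 8h and 8h2h, and of 2.69, 4.67 and 0.43 on the Rescue-labelled ones. Whether the 3 replicates are separate cultures is not stated, so the p values measure only the spread between these samples.

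Levels are on a log2 scale, as the processed signal minus the 75th percentile of the same array, so a level of 0 is as bright as that percentile and a difference of 1 is 2-fold. Esrrb was read only from its brightest probe that passed the filter, and any other Esrrb probe is not described here. The probe read went against the line labels. Its mean level was 5.03 ± 0.27, 3.75 ± 0.31 and 3.85 ± 0.54 on KO-labelled arrays titled 0h, 8h and 8h2h (SD, n = 3 each). On Rescue-labelled arrays it was 4.40 ± 0.41, 1.91 ± 0.21 and 1.62 ± 0.13. The position of that probe relative to the deleted part or the transgene is unknown here, so the groups are called KO-labelled and Rescue-labelled throughout. One array stood apart, KO 8h2h b (KO-labelled, slide b): 88.6% of its probes were well above background, against 46.6% to 56.4% on the other 8 KO-labelled arrays and 53.6% to 63.8% on the Rescue-labelled arrays. Its correlation with the other 2 arrays of its group was 0.943 to 0.945, against 0.983 to 0.996 for the other replicate pairs. Without it, the averaged line difference is 0.32 for Skor1, -2.57 for Cited1, -1.04 for Bhlhe40, -1.90 for Ano1, -0.75 for Ackr3 and 0.22 for Txnip. The averaged 8h2h change is then -1.70, 0.15, -0.56, -0.46, 0.46 and 0.02 for the same genes, and no call on these averages changes. All 8 embryonic stem cell markers were well above background on all 18 arrays. Their mean level ran from 4.67 to 5.63 over KO-labelled arrays and from 4.06 to 5.02 over Rescue-labelled arrays. Single markers moved apart under this mean. Between 0h and 8h, Nanog fell from 3.63 to 0.04 on KO-labelled and from 2.12 to -2.61 on Rescue-labelled arrays. Zfp42 fell from 6.18 to 5.74 and from 5.22 to 3.67. Utf1 rose from 5.27 to 6.21 and from 5.24 to 6.03. Of 5 trophoblast markers, Elf5 was above background on 2 KO-labelled and 6 Rescue-labelled arrays but was not fitted, since its spot was flagged as an outlier on 1 array. The mean level of the other 4 ran from -1.28 to 1.85 over KO-labelled arrays and from 1.57 to 3.09 over Rescue-labelled arrays. Not all of them shared this direction. Krt8 was 2.18, 2.04 and 2.04 on KO-labelled arrays titled 0h, 8h and 8h2h, against 5.63, 6.23 and 6.23. Krt18 was lower there too. Cdx2 was lower at 0h (-5.38 against -1.99), equal at 8h (0.79) and close at 8h2h (-0.44 against -0.24). Eomes (-2.97, -1.04 and -1.37, against -3.28, -2.04 and -2.2) and Elf5, near background, were higher on KO-labelled arrays at each title. Of 5 primitive endoderm markers, 3 were above background on all arrays, and their mean level ran from -4.41 to -2.23 over KO-labelled arrays and from -2.91 to -2.17 over Rescue-labelled arrays. Of 7 fibroblast or feeder markers, 1 (Thy1) was above background on all arrays and Lum on none, and the mean level of the 5 tested ran from -4.01 to -1.43 over KO-labelled arrays and from -3.60 to -2.82 over Rescue-labelled arrays. The 3 neural markers were above background on all arrays, with a mean level from -1.75 to -0.88 over KO-labelled arrays and from -2.07 to -1.07 over Rescue-labelled arrays. The part of these marker shifts between lines in the results below was not tested. In bulk samples, fewer cells of a type and less RNA per cell cannot be told apart.

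The genes belong to separate pathways. In mouse embryonic stem cells, ERK signalling, which FGF normally starts, opens the exit from self-renewal, and the nuclear receptor Esrrb belongs to the network that holds the cells in the naive state. Skor1, Cited1 and Bhlhe40 encode nuclear regulators of transcription, Ano1 and Ackr3 encode membrane proteins, and Txnip encodes a regulator of the thioredoxin and glucose systems.

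Promoters, from 250 bases before to 50 after the start site, were taken from RefSeq for 5 of the 6 genes (9 promoters, GRCm38.p6), since they are the regulatory DNA nearest to the changes described. They were searched on both strands for AAGGTCA, the extended site that Esrrb binds as a monomer, CCGGAA, the core of ETS factor sites, TGANTCA, the AP-1 site, and CACGTG, the E-box that Bhlhe40 binds. Of 32841 promoters of this length, 4.72% hold AAGGTCA, 14.9% CCGGAA, 7.81% TGANTCA and 7.15% CACGTG. Those of the 4 genes with a match, or with the widest difference between lines (Ano1), are printed 5′ to 3′ along the gene's strand with matched bases in capitals. A match is a description of these letters and no evidence of binding.
Skor1, chr9:63148912-63149211, minus strand: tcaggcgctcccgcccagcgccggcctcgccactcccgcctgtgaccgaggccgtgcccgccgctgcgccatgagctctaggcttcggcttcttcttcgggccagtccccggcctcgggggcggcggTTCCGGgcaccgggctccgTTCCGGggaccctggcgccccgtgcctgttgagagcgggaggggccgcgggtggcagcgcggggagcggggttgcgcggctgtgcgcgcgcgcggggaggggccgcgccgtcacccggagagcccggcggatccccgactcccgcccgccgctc
Cited1, chrX:102250727-102251026, minus strand: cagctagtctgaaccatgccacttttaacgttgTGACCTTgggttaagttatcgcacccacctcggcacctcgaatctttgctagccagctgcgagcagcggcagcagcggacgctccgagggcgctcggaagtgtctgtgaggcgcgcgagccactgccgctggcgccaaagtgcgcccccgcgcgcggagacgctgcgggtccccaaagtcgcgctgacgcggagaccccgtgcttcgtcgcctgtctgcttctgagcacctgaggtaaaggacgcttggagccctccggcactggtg
Ano1, chr7:144738524-144738823, minus strand: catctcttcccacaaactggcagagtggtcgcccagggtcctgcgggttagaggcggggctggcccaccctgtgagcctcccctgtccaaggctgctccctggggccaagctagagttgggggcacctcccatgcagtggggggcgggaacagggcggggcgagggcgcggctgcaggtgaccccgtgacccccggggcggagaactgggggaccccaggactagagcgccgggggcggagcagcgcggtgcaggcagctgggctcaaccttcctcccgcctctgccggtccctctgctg
Txnip, chr3:96557707-96558006, plus strand: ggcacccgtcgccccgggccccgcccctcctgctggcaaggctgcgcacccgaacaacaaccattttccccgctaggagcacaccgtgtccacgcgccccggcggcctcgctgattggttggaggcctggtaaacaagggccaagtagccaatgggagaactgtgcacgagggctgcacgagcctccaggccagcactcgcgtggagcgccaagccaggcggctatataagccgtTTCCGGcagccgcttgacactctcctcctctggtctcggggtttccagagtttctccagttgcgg
This Skor1 promoter holds CCGGAA on the opposite strand at -123 and -104 from the start site, and the Txnip promoter holds it on the opposite strand at -15. The Cited1 promoter shown holds AAGGTCA on the opposite strand at -217. The promoters of Ano1 and Ackr3 and the other promoters of Skor1 and Cited1 hold none of the 4 sequences. The Ano1 promoter lies inside the span of the gene (chr7:144588549-144752026), so the DNA around the gene's outer 5′ end was not searched.

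Skor1 encodes a transcriptional corepressor of the SKI family (chr9:63138164-63148961). It was the only one of the 6 genes to reach its highest level on KO-labelled arrays titled 8h. On KO-labelled arrays (replicates a, b and c) its level was -2.86, -2.06 and -3.06 at 0h, 1.84, 1.53 and 1.82 at 8h, and -0.56, -0.45 and -0.32 at 8h2h. On Rescue-labelled arrays it was -1.47, -1.56 and -1.13 at 0h, 0.05, 0.24 and 0.16 at 8h, and -1.03, -1.05 and -1.19 at 8h2h. The lines were thus in opposite order before and after: KO-labelled arrays were lowest of all at 0h and highest of all at 8h, with no overlap with the Rescue-labelled arrays at either title. From the highest group mean down, the order was KO 8h, Rescue 8h, KO 8h2h, Rescue 8h2h, Rescue 0h and KO 0h, and Rescue 8h2h and Rescue 0h were the only neighbours whose arrays overlapped. The 8h change was 4.39 ± 0.20 (SE), or 21-fold, on KO-labelled arrays and 1.53 ± 0.20, or 2.90-fold, on Rescue-labelled arrays. Their difference was 2.86 ± 0.29, with 3.18, 1.79 and 3.59 on slides a, b and c. The 8h2h change was -2.18 ± 0.20 on KO-labelled arrays and -1.24 ± 0.20 on Rescue-labelled arrays, a difference of -0.94 ± 0.29 (-0.93 ± 0.31 without KO 8h2h b). A second Skor1 probe, A_55_P2106504, followed the first (A_51_P242643) with r = 0.986 over 18 arrays, with an 8h change of 4.07 on KO-labelled and 1.68 on Rescue-labelled arrays.

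**Figure D1:**
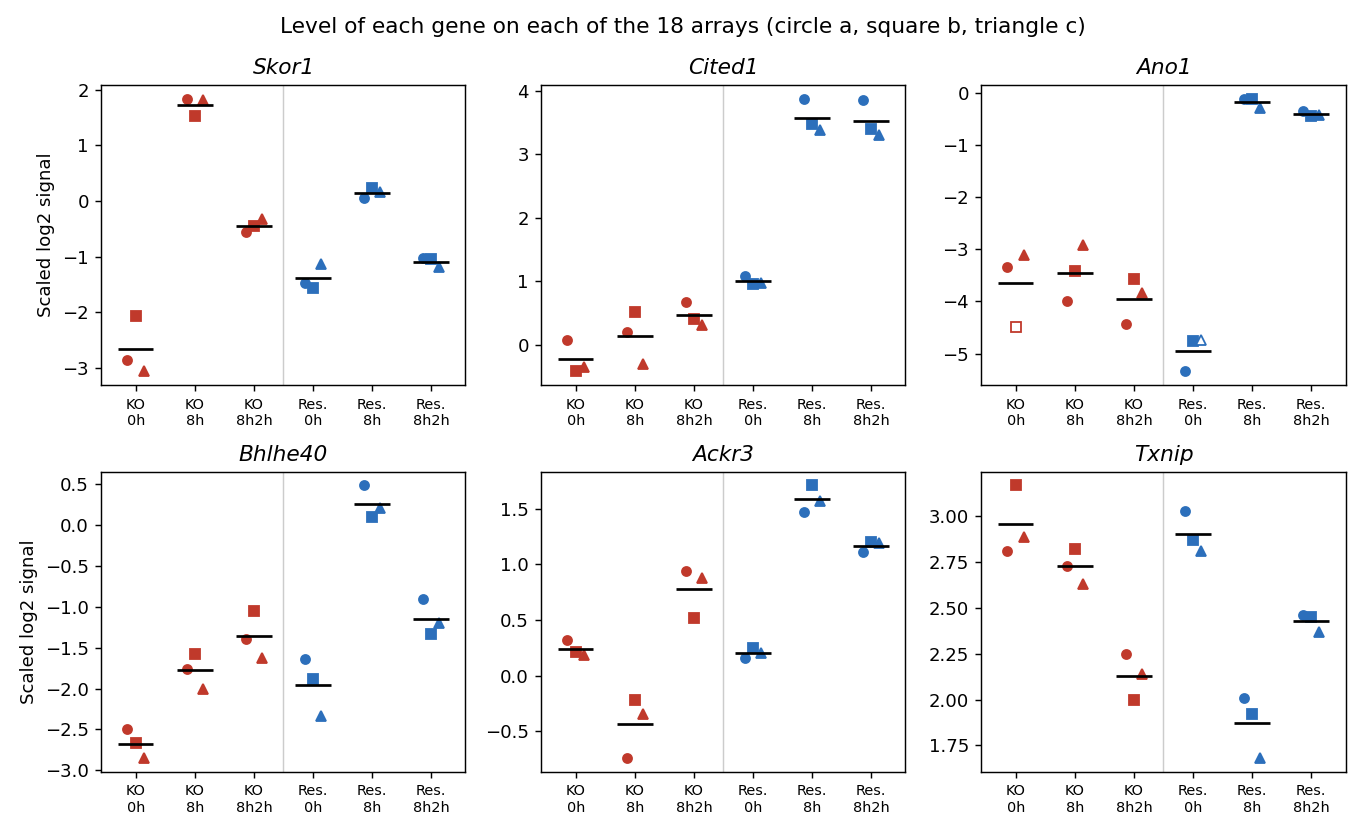
Scaled log2 signal (vertical axis) of the 6 genes on each of the 18 arrays, grouped by line and title, KO-labelled in red and Rescue-labelled in blue, with circles, squares and triangles for slides a, b and c, black bars for group means and open symbols for arrays where the probe was not well above background. Skor1 is highest on KO-labelled arrays at 8h (1.53 to 1.84), whereas Cited1, Ano1, Bhlhe40 and Ackr3 are highest on Rescue-labelled arrays at 8h, and Txnip is lowest there (1.68 to 2.01).

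Over both lines, Skor1 was called in all 3 tested averages: the 8h change was 2.96 ± 0.14 (limma adjusted p = 1.35e-09), the 8h2h change was -1.71 ± 0.14 (limma adjusted p = 2.55e-06) and the difference between lines over the 3 titles was 0.32 ± 0.12 (limma adjusted p = 0.0446). With the slide as a block the adjusted p of the line difference is 0.0547, with quantile normalization 0.0527 and with no scaling 0.0661, and leaving out any of 11 single arrays gives 0.0562 to 0.0844: Rescue 0h a and b, Rescue 8h a, b and c, Rescue 8h2h a, b and c, KO 8h a and c, and KO 8h2h c.

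Cited1 encodes a coactivator that recruits CBP and p300 to TFAP2 and SMAD proteins (chrX:102247378-102252181). Its level was higher on every Rescue-labelled array than on every KO-labelled array, and its 8h change was larger on the Rescue-labelled ones. On KO-labelled arrays it was 0.08, -0.42 and -0.35 at 0h, 0.20, 0.51 and -0.31 at 8h, and 0.68, 0.41 and 0.31 at 8h2h. On Rescue-labelled arrays it was 1.09, 0.96 and 0.98 at 0h, 3.88, 3.48 and 3.38 at 8h, and 3.86, 3.40 and 3.31 at 8h2h. The order of groups was Rescue 8h, Rescue 8h2h, Rescue 0h, KO 8h2h, KO 8h and KO 0h, and arrays overlapped within the first pair and between neighbouring KO-labelled groups. The 8h change was 0.37 ± 0.22 on KO-labelled arrays and 2.57 ± 0.22, or 5.94-fold, on Rescue-labelled arrays, a difference of -2.20 ± 0.30 (slides a, b and c: -2.68, -1.58 and -2.35). The 8h2h change was 0.33 ± 0.22 on KO-labelled arrays and -0.06 ± 0.22 on Rescue-labelled arrays, a difference of 0.39 ± 0.30 (0.42 ± 0.33 without KO 8h2h b). The KO-labelled arrays were thus 10.9-fold below the Rescue-labelled ones at 8h and 8.30-fold below at 8h2h, against 2.37-fold at 0h. Averaged over titles, Cited1 was 2.58 lower on the log2 scale in KO-labelled than in Rescue-labelled cells (-2.58 ± 0.12, limma adjusted p = 4.23e-09). Over both lines its 8h change was 1.47 ± 0.15 (limma adjusted p = 2.7e-06), and its 8h2h change of 0.13 ± 0.15 did not pass (limma adjusted p = 0.664).

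Bhlhe40 encodes a basic helix-loop-helix repressor that takes part in the circadian clock and in stress responses (chr6:108660629-108666925). On KO-labelled arrays its level was -2.50, -2.67 and -2.85 at 0h, -1.76, -1.58 and -2.00 at 8h, and -1.39, -1.05 and -1.63 at 8h2h, so its group mean was higher at each later title, with overlap between the 8h and 8h2h arrays. On Rescue-labelled arrays it was -1.64, -1.89 and -2.34 at 0h, 0.48, 0.09 and 0.20 at 8h, and -0.91, -1.33 and -1.20 at 8h2h, a peak at 8h. The order was Rescue 8h, Rescue 8h2h, KO 8h2h, KO 8h, Rescue 0h and KO 0h, with the Rescue 8h arrays above all others and overlaps between neighbours among the next 4 groups. The 8h change was 0.89 ± 0.20 on KO-labelled arrays and 2.21 ± 0.20, or 4.63-fold, on Rescue-labelled arrays, a difference of -1.32 ± 0.28. The 8h2h change was 0.43 ± 0.20 on KO-labelled arrays and -1.40 ± 0.20 on Rescue-labelled arrays, a difference of 1.83 ± 0.28 (1.76, 1.96 and 1.77 on slides a, b and c, and 1.67 ± 0.28 without KO 8h2h b). Averaged over titles it was lower in KO-labelled than in Rescue-labelled cells (-0.99 ± 0.12, limma adjusted p = 9.98e-06), and its averaged 8h change was 1.55 ± 0.14 (limma adjusted p = 7.1e-07). The averaged 8h2h change was -0.49 ± 0.14 (limma adjusted p = 0.0375), which averages changes of opposite sign. It misses the threshold with no scaling (adjusted p = 0.659) and with no filter on dim probes (0.0691), and when any of 8 single arrays is left out (0.0634 to 0.0956: Rescue 8h a and c, Rescue 8h2h b and c, KO 8h a and b, KO 8h2h a and c).

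Ano1 encodes a calcium-activated chloride channel (chr7:144588549-144752026), and its probe was well above background on 16 of 18 arrays. The exceptions were replicate b of KO 0h and replicate c of Rescue 0h. On KO-labelled arrays its level was -3.33, -4.49 and -3.11 at 0h, -4.00, -3.42 and -2.92 at 8h, and -4.43, -3.57 and -3.84 at 8h2h. On Rescue-labelled arrays it was -5.34, -4.76 and -4.74 at 0h, -0.11, -0.12 and -0.29 at 8h, and -0.35, -0.45 and -0.42 at 8h2h. The KO-labelled arrays of the 3 titles overlapped one another, while the Rescue-labelled arrays lay below all of them at 0h and above all of them at 8h and 8h2h. The 8h change was 0.20 ± 0.34 on KO-labelled arrays and 4.77 ± 0.34, or 27.3-fold, on Rescue-labelled arrays. Their difference of -4.57 ± 0.48 had -5.90, -3.57 and -4.25 on slides a, b and c. The size of these values depends on the background, since the processed signal on Rescue 0h arrays was 13.3, 17.2 and 11.1, and with normexp background correction the difference is -2.63 ± 0.28. The 8h2h change was -0.50 ± 0.34 on KO-labelled arrays and -0.23 ± 0.34 on Rescue-labelled arrays, a difference of -0.27 ± 0.48 (-0.46 ± 0.50 without KO 8h2h b). The averaged line difference was -1.84 ± 0.20 (limma adjusted p = 4.31e-06), and the averaged 8h change was 2.49 ± 0.24 (limma adjusted p = 1.31e-06), or 1.18 ± 0.14 with normexp (adjusted p = 3.62e-06). The averaged 8h2h change was -0.37 ± 0.24 (limma adjusted p = 0.406).

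Ackr3 encodes an atypical chemokine receptor that binds CXCL12 and takes it up without G protein signalling (chr1:90203980-90215724). On KO-labelled arrays its level was 0.32, 0.21 and 0.19 at 0h, -0.74, -0.22 and -0.34 at 8h, and 0.94, 0.52 and 0.88 at 8h2h. On Rescue-labelled arrays it was 0.16, 0.25 and 0.20 at 0h, 1.47, 1.71 and 1.57 at 8h, and 1.11, 1.20 and 1.19 at 8h2h. The lines overlapped at 0h and were apart at 8h and 8h2h, with KO 8h the lowest group and Rescue 8h the highest. The 8h change had opposite signs: -0.67 ± 0.13 on KO-labelled arrays and 1.38 ± 0.13, or 2.60-fold, on Rescue-labelled arrays, a difference of -2.05 ± 0.19 (slides -2.37, -1.88 and -1.91). The 8h2h change also had opposite signs, at 1.21 ± 0.13 on KO-labelled arrays and -0.42 ± 0.13 on Rescue-labelled arrays, a difference of 1.63 ± 0.19 (1.76 ± 0.18 without KO 8h2h b). The averaged line difference was -0.79 ± 0.08 (limma adjusted p = 1.97e-06). Its averaged 8h change of 0.35 ± 0.10 (limma adjusted p = 0.00842) and 8h2h change of 0.40 ± 0.10 (limma adjusted p = 0.0137) are means of opposite changes. The first is 0.68 ± 0.17 with no scaling (adjusted p = 0.0085) and misses the threshold with normexp background correction (0.26 ± 0.10, adjusted p = 0.0586), and the second with no scaling (0.51 ± 0.17, adjusted p = 0.143).

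Txnip encodes the thioredoxin-interacting protein, an alpha-arrestin that binds thioredoxin and restrains glucose uptake (chr3:96557957-96561857). It was the gene of the 6 that fell in the averaged 8h change. On KO-labelled arrays its level was 2.81, 3.17 and 2.89 at 0h, 2.73, 2.82 and 2.63 at 8h, and 2.25, 2.00 and 2.14 at 8h2h. On Rescue-labelled arrays it was 3.03, 2.87 and 2.81 at 0h, 2.01, 1.92 and 1.68 at 8h, and 2.46, 2.45 and 2.37 at 8h2h. The lines overlapped at 0h, KO-labelled arrays were above at 8h, and they were below at 8h2h. The 8h change was -0.23 ± 0.12 on KO-labelled arrays and -1.04 ± 0.12 on Rescue-labelled arrays, a difference of 0.80 ± 0.17. The 8h2h change was -0.59 ± 0.12 on KO-labelled arrays and 0.56 ± 0.12 on Rescue-labelled arrays, a difference of -1.15 ± 0.17 (-1.08 ± 0.17 without KO 8h2h b). A second probe, A_55_P2006255, correlated with the first at r = 0.816 and gave an 8h change of -0.45 on KO-labelled and -0.83 on Rescue-labelled arrays. The averaged 8h change was -0.63 ± 0.08 (limma adjusted p = 2.93e-05), the line difference was 0.20 ± 0.07 (limma adjusted p = 0.029) and the averaged 8h2h change was -0.02 ± 0.08 (limma adjusted p = 0.938). With no scaling the 8h change is -0.31 ± 0.20 (adjusted p = 0.283) and the line difference 0.36 ± 0.17 (adjusted p = 0.14). The line difference also misses the threshold without KO 8h2h a, KO 0h b, KO 8h b, Rescue 8h c or Rescue 8h2h c (adjusted p = 0.0564 to 0.0646).

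**Figure D2:**
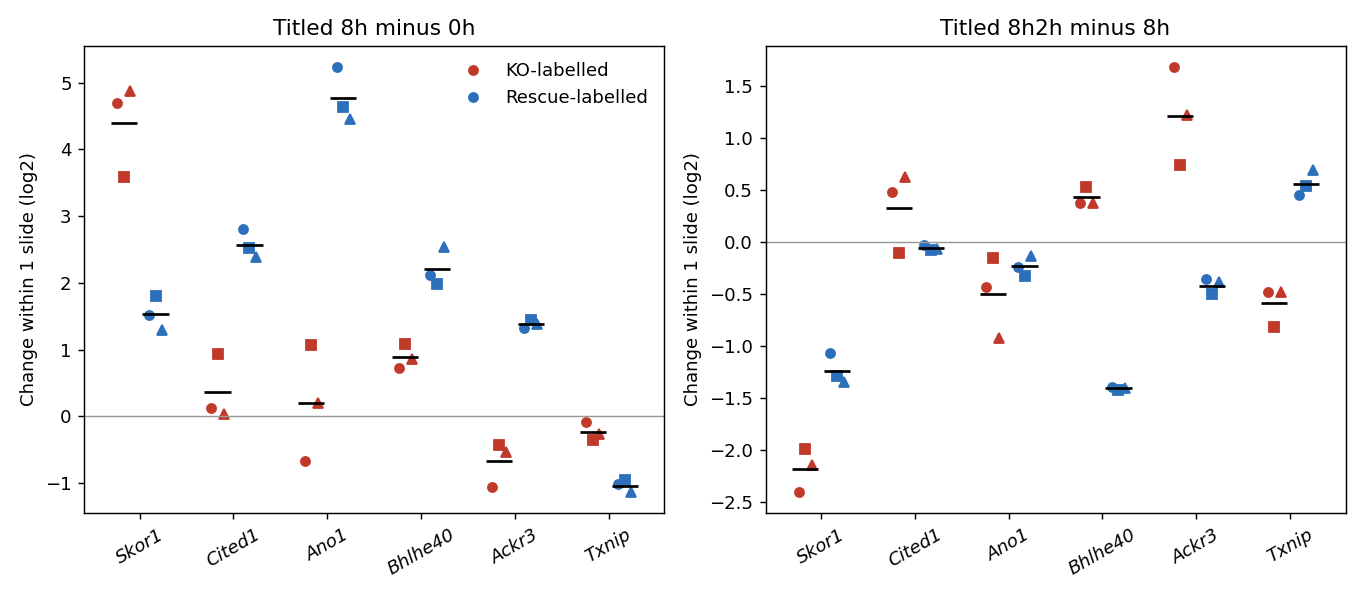
Change in scaled log2 signal (vertical axes) of each gene between 2 arrays of the same slide, titled 8h minus 0h on the left and 8h2h minus 8h on the right, for KO-labelled (red, left of each pair) and Rescue-labelled (blue) arrays, with circles, squares and triangles for slides a, b and c and black bars for means. For Ackr3 at 8h the KO-labelled changes lie between -1.06 and -0.43 and the Rescue-labelled ones between 1.32 and 1.45.

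The lines overlapped at 0h for Ackr3 and Txnip. The Ackr3 line difference of -0.79 thus rests on the 8h and 8h2h titles that the choice of the genes also used. For Txnip, KO-labelled minus Rescue-labelled was 0.05 at 0h, 0.85 at 8h and -0.30 at 8h2h. The same differences were -1.27, 1.58 and 0.64 for Skor1 and 1.30, -3.27 and -3.54 for Ano1. The line differences of Txnip, Skor1 and Ano1 thus average values of opposite sign. For Cited1 and Bhlhe40 the group means differed in the same direction at each title. The Bhlhe40 difference at 8h2h was small, at -0.21 ± 0.20, with -0.49, 0.28 and -0.43 on slides a, b and c. The counts of called averages are given beside those of all genes, and nothing is read from them. In the averaged line difference 6 of 6 were called, 2 higher and 4 lower in KO-labelled cells, where 40.3% of all 16022 genes were called. In the averaged 8h change 6 of 6 were called, 5 higher and 1 lower at 8h, against 39.7% of all genes, and in the averaged 8h2h change 3 of 6, against 11.7%. Of these 3, 1 was higher at 8h2h (6.58% of all genes) and 2 were lower (5.09%). Higher calls made up 18.2% of all genes and lower calls 22.1% in the line difference, and 17.8% and 21.9% in the 8h change. The median over the 6 genes was -0.89 for the line difference and 1.51 for the 8h change, where the medians of all genes were 0 and -0.04. In the 8h change that differed between lines, which the choice of the genes used, 2.28% of all genes were called (1.07% higher and 1.21% lower in KO-labelled cells), and in the 8h2h change that differed, 0.0562% (0.0499% higher and 0.00624% lower). The 2.28% stands for 365 genes, which become 54 with no scaling and 236 with no filter on dim probes. They become 755 without KO 8h2h b, 184 without Rescue 8h b, 218 without Rescue 8h c, 237 without Rescue 8h a, 227 without KO 0h a and 238 without KO 8h a. With no scaling between arrays the median of all genes shifts to 0.15 in the line difference, 0.29 in the 8h change and 0.13 in the 8h2h change. The calls then split into 2226 higher and 1502 lower in the line difference, against 2922 and 3537 with scaling, and into 3244 and 795 in the 8h change, against 2845 and 3514. In the 8h2h change they split into 431 and 148, against 1054 and 815.

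**Figure D3:**
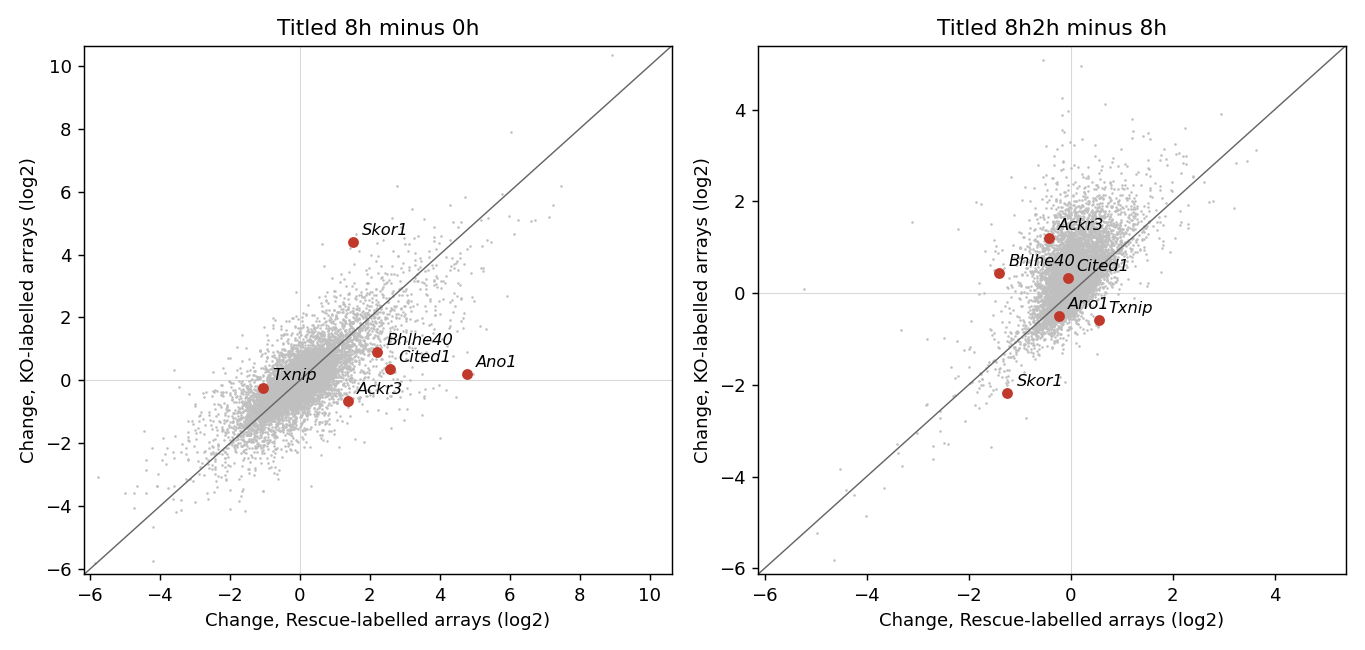
Change in scaled log2 signal of 16022 genes on Rescue-labelled arrays (horizontal axes) and KO-labelled arrays (vertical axes), titled 8h minus 0h on the left and 8h2h minus 8h on the right, with the 6 genes in red and equal change on the diagonal line. Skor1 lies above the diagonal at 8h (4.39 on KO-labelled and 1.53 on Rescue-labelled arrays), and Ano1 lies far to the right of it (0.20 and 4.77).

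Across the 18 arrays, which share groups and slides, the levels of Cited1, Ano1, Bhlhe40 and Ackr3 went together, with Pearson's r of 0.719 to 0.852 over their 6 pairs. Txnip ran against them, from r = -0.593 with Cited1 to -0.843 with Bhlhe40. Skor1 had r of -0.35 to 0.422 with the other 5. The genes whose levels were most like each one's over the 18 arrays were Slc7a7, Spn and Cldn5 for Skor1 (r of 0.977, 0.963 and 0.935), Rnf19a, Acsl4 and Kctd11 for Cited1 (0.968, 0.967 and 0.963) and Map3k14, Bdnf and Jak2 for Bhlhe40 (0.908, 0.902 and 0.899). They were Neo1, Smox and Mib1 for Ano1 (0.966, 0.936 and 0.935), Bok, Ndrg1 and Rgs16 for Ackr3 (0.887, 0.858 and 0.855), and Wdhd1, Erf and Tbl1xr1 for Txnip (0.885, 0.874 and 0.873). These genes were picked for their likeness, so a shared pattern over the groups follows from the choice. Those paired with Skor1 were highest on KO-labelled arrays titled 8h. Slc7a7, an amino acid transporter gene, had mean levels of 1.84, 4.37 and 3.51 on KO-labelled arrays titled 0h, 8h and 8h2h, and of 2.75, 3.51 and 2.93 on Rescue-labelled arrays. Smox, which encodes spermine oxidase and was paired with Ano1, had mean levels of 0.18, 0.58 and 0.38 on KO-labelled arrays and of 0.25, 2.69 and 2.30 on Rescue-labelled arrays.

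**Figure D4:**
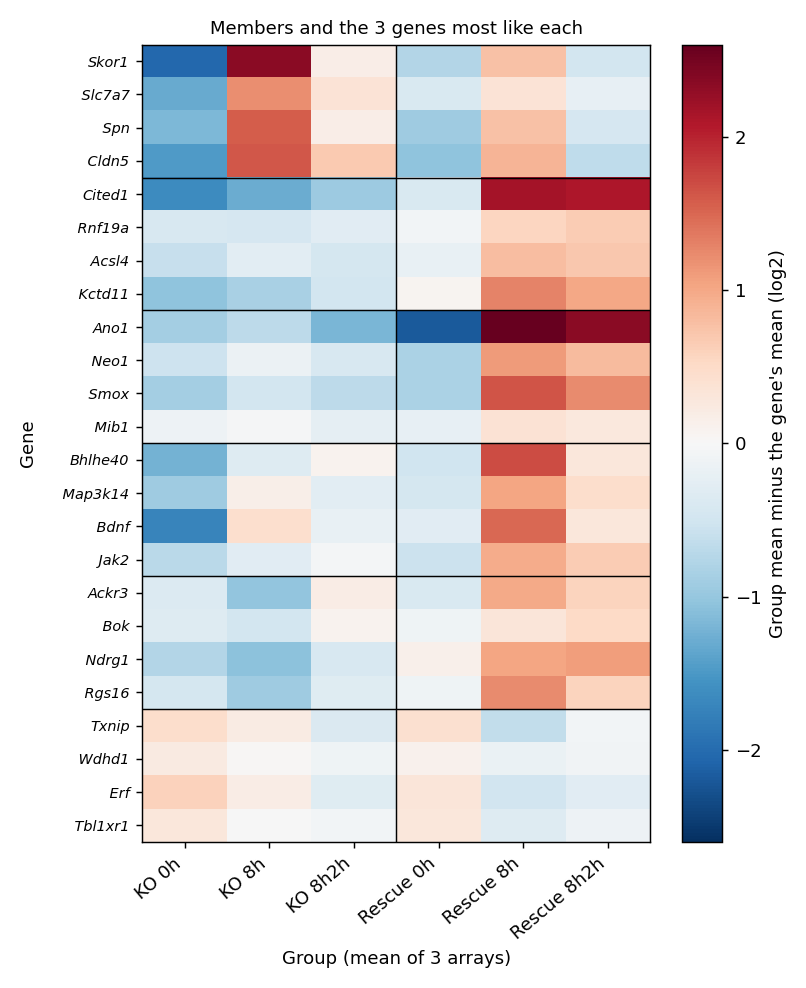
Group mean minus the gene's own mean over the 6 groups (colour, log2) for each of the 6 genes and, under it, the 3 genes with the highest r over 18 arrays, with KO-labelled groups left of Rescue-labelled groups. The Skor1 block is reddest at KO 8h, where Slc7a7 had a mean level of 4.37, and the Cited1 and Ano1 blocks at Rescue 8h and 8h2h.

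The relatives and partners of the 6 genes, 99 genes in 6 lists of which 82 were tested, are described next by how many passed each test. They were called in 37 of 82 for the line difference (12 higher and 25 lower in KO-labelled cells, 45.1%, against 40.3% of all genes), in 41 for the 8h change (18 higher and 23 lower, 50%, against 39.7%) and in 16 for the 8h2h change (12 higher and 4 lower, 19.5%, against 11.7%). For a different 8h change between the lines 4 of 82 were called (4.88%, against 2.28% of all genes): Smad3, Smurf1, Tfap2a and Txnrd2. With the slide as a block 5 were called, the other being Slc2a1, a glucose transporter gene (0.92 ± 0.24, limma adjusted p = 0.068 without the block and 0.0398 with it). For a different 8h2h change, limma called 0 of 82, with or without the slide as a block, where the main fit called 0.0562% of all genes. Of the 82, 4 had an unadjusted p under 0.05. With so low a share over all genes, nothing is read from the 0.

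Among the 15 tested SKI family members and SMAD partners, 2 were higher and 6 lower in KO-labelled cells, where 18.2% and 22.1% of all genes were. Smad6, an inhibitory SMAD, was higher (1.34 ± 0.16, limma adjusted p = 1.38e-05), with 0.71 under normexp. Smad3, a TGF-beta signal transducer, was lower (-1.11 ± 0.10, limma adjusted p = 6.25e-07), and so was Ltbp1, which encodes a protein that binds latent TGF-beta (-1.41 ± 0.19, limma adjusted p = 3.35e-05), with -0.89 under normexp. Smad7, another inhibitory SMAD, fell by 1.51 at 8h2h over both lines (limma adjusted p = 6.07e-06). Its line difference of 0.28 did not pass (limma adjusted p = 0.061) but passed with the slide as a block (limma adjusted p = 0.00466). Its 8h change passed neither without the block (limma adjusted p = 0.297) nor with it (0.0766). The 8h change of Smad3 was -0.96 ± 0.12 over both lines (limma adjusted p = 1.58e-05, and -0.63 with no scaling) and differed between the lines by -1.40 ± 0.24 (limma adjusted p = 0.00605). Smurf1, which encodes a ubiquitin ligase of SMAD signalling, differed by -0.96 ± 0.16 (limma adjusted p = 0.00558). Both differences miss the threshold with no scaling (adjusted p = 0.135 and 0.752).

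Of the 10 tested CITED family members and CBP or p300 partners, Tfap2c, a transcription factor of trophoblast and germ cells that binds CITED proteins, was the most unequal between lines, at -2.50 ± 0.19 in KO-labelled cells (limma adjusted p = 1.98e-07). Cited4 fell by 2.88 at 8h (limma adjusted p = 1.98e-07) and rose by 1.93 at 8h2h (limma adjusted p = 7.3e-05) over both lines. Tfap2a differed in its 8h change by 1.24 ± 0.27 (limma adjusted p = 0.0262), with 0.65 under normexp. The call is lost without any of 7 single arrays (adjusted p = 0.0504 to 0.0859: Rescue 0h a, Rescue 8h a and b, KO 8h a and c, KO 0h b and c) and also with the mean of a gene's probes (0.185), quantile normalization (0.874), no scaling (0.809), no filter on dim probes (0.0542) and a trended and robust prior (0.0604).

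In the anoctamin family, 7 tested, 1 was higher and 3 were lower in KO-labelled cells, where 18.2% and 22.1% of all genes were. Ano9 was the higher one (1.20 ± 0.14, limma adjusted p = 7.83e-06), and Ano10 (-0.72 ± 0.09, limma adjusted p = 2.39e-05), Ano6 (-0.23 ± 0.06, limma adjusted p = 0.00629) and Ano4 (limma adjusted p = 0.0186) were the lower ones. For a different 8h change limma called 0 of the 7, where 2.28% of all genes were called, and 2 had an unadjusted p under 0.05. Ano4 came nearest (limma adjusted p = 0.0731), but it was above background on 0 of the 0h arrays of either line, so no size is given for it. The 22 tested bHLH-Orange and clock genes included Arntl, a core activator of the clock, whose 8h change was 2.06 ± 0.12 (limma adjusted p = 8.83e-09), and Hes1, a repressor downstream of Notch, which was higher in KO-labelled cells (1.32 ± 0.19, limma adjusted p = 7.61e-05, but 0.173 with quantile normalization, where the value is 0.81, and 0.67 under normexp). For a different 8h change limma called 0 of the 22, against 2.28% of all genes, and 5 had an unadjusted p under 0.05. Of the 11 tested genes of the CXCL12 axis, 7 were called in the line difference (1 higher and 6 lower in KO-labelled cells, where 18.2% and 22.1% of all genes were). Among the lower ones, Cxcl10, Cxcl12, Adm and Calcrl were above background on 0 arrays of some KO-labelled group, so no size is given for them. For a different 8h change limma called 0 of the 11, against 2.28% of all genes, and 3 had an unadjusted p under 0.05. Of the 18 tested alpha-arrestin, thioredoxin and MondoA partner genes, Txnrd2, mitochondrial thioredoxin reductase, was lower in KO-labelled cells (-1.45 ± 0.08, limma adjusted p = 9.11e-09, and -0.95 with the mean of its probes) and differed in its 8h change by -1.14 ± 0.19 (limma adjusted p = 0.00558). That difference misses the threshold with no scaling (adjusted p = 0.26) and with the mean of a gene's probes (0.304). Arrdc4, an alpha-arrestin that Txnip's regulator MondoA also drives, fell by 1.1 at 8h over both lines (limma adjusted p = 8.49e-05).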

How the data were processed

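Per the file headers, the authors extracted each 1-colour array with Agilent Feature Extraction 12.0.1.1, and the deposited processed signal is an intensity after background subtraction, with no scaling between arrays; the deposited table of values is the same intensity. Deposited spot flags (other values, not intensities) marked spots well above background. Here log2 of the processed signal minus each array's 75th percentile over non-control spots was computed. A probe was kept where some group had all 3 of its arrays well above background, and each gene was read from its brightest kept probe by mean, named through RefSeq transcripts. Outlier-flagged spots were left out, and 136 kept probes with no value on some array were not fitted, which removed 47 genes. The 6 group means were fitted to the 18 arrays with limma 3.58.1 (R 4.3.3), two-sided, with Benjamini-Hochberg adjustment over 16022 genes at 0.05. Averages over lines and titles are made from the same group means as the differences by which the genes were chosen, and are no independent evidence. The genes, lists and tests were chosen with earlier results of these data known. Replicates a, b and c are 3 slides, each with all 6 groups. Same-slide deviations correlated above 0.1 in 28 of 45 pairs (median 0.141). The main fit did not take this likeness into account, and the slide entered as a block only in an alternative. Alternatives also covered background, scaling, filter, probe choice, variance prior and leaving out each array; normexp (offset 50) used the median spot signal. The procedure was run on simulated data with independent noise, without likeness within slides and without an array that stood apart. That run does not cover these features of the data. Gene positions are those of GRCm38.p6. The number of arrays limits the precision.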

Additional observations from a re-analysis of the deposited data

Results flagged for a closer look

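Each value below is the difference between the lines in a change between titles, given as KO-labelled minus Rescue-labelled on the log2 scale. The 6 genes were chosen for that difference, so their values carry no test. In the 8h change the values are 2.86 for Skor1, -2.20 for Cited1, -4.57 for Ano1, -1.32 for Bhlhe40, -2.05 for Ackr3 and 0.80 for Txnip. In the 8h2h change they are 1.83 for Bhlhe40, 1.63 for Ackr3, -1.15 for Txnip, -0.94 for Skor1, 0.39 for Cited1 and -0.27 for Ano1. Among relatives of these genes the interaction term of the limma model passed the threshold in the 8h change for Smad3 (-1.40), Smurf1 (-0.96), Tfap2a (1.24) and Txnrd2 (-1.14).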

How the results depend on the processing

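Over 27 alternatives, 757 of 805 values of the 6 genes kept their direction and their side of the threshold or, where untested, moved by less than the spread between replicates. Part of that count was fixed in advance. The deposited table of values was among the alternatives and holds the same intensities. The replicate block and the variance prior cannot move the untested values in this balanced layout. Leaving out an array of a group that a difference does not use cannot move that difference. Cited1, Ano1, Bhlhe40 and Ackr3 have 1 probe each, so the filter and the mean of a gene's probes cannot move their estimates. The count for a different 8h change (365) was 54 with no scaling, 236 with no filter on dim probes and 184 to 755 with 1 array left out (755 without KO 8h2h b). For the 8h2h change that differed, 9 genes became 4 with normexp, 3 with quantile normalization, 5 with no scaling, 3 with a filter over all 18 arrays, 4 with a trended and robust prior and 7 to 17 with 1 array left out. The line difference gave 6459 genes, 3728 with no scaling, 10720 with no filter and 5862 to 7670 with 1 array left out. The 8h change gave 6359, 4039 with no scaling and 5601 to 7369 with 1 array left out, and the 8h2h change 1869, 579 with no scaling and 1325 to 2235 with 1 array left out. The Skor1 line difference was 0.29 with quantile normalization, 0.47 with no scaling, 0.32 with the replicate block and 0.22 to 0.38 with 1 array left out. The replicate block changed no other call on the 6 genes. The Ano1 difference in the 8h change was -2.63 with normexp, and in the 8h2h change -1.41 with quantile normalization. For Bhlhe40, the 8h2h change was -0.38 with no scaling, -0.49 with no filter and -0.56 to -0.42 with 1 array left out, and its difference was 1.55 with normexp, 1.47 with quantile normalization and 1.67 to 1.96 with 1 array left out. The Ackr3 8h change was 0.26 with normexp and its 8h2h change 0.51 with no scaling. For Txnip, with no scaling the line difference was 0.36 and the 8h change -0.31, and the line difference was 0.17 to 0.23 with 1 array left out. Its 8h2h change, not called, turned sign to 0.05 with quantile normalization, 0.10 with no scaling and 0 with the mean of its probes, and ran from -0.06 to 0.02 with 1 array left out; the mean of its probes gave a difference in the 8h change of 0.59. The Tfap2a 8h2h change was -0.12 with quantile normalization. For the named relatives 939 of 988 values stayed so, 48 missed the threshold and 1 turned sign (Tfap2a). The causes were not tested. Signal over background limits Ano1 at 0h.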
